A study of Mus musculus with 6 samples.

Results

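The 9 genes described here encode cell adhesion molecules: Vcam1, Icam1, Ncam1, Alcam, Mcam, L1cam, F11r and Pvr, which belong to the immunoglobulin superfamily, and Cd44, the receptor for hyaluronan. They were the rows whose gene name equals a member in all 6 count tables, 9 of 34745 genes. RNA was sequenced from 889 cells (889-DTC), a murine lung cancer line of the C57BL/6 strain, in 3 libraries of cells that carried Cas9 with a control sgRNA (sgcontrol) and 3 libraries of cells that carried Cas9 with sgRNA against kiaa1522 (sgkiaa1522). Both groups were infected with lentivirus, the methods name an EGFP sgRNA as the control, and no drug or cytokine is given for these libraries. The labels do not say which kiaa1522 sgRNA was used, whether the cells were a pool or a clone, or whether replicates were separate cultures, so the p-values measure only the spread between these libraries. The question put to the data was how the RNA of these adhesion molecules differed between the groups.

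Adhesion molecules of the immunoglobulin superfamily are held at the cell surface and reach out with folded extracellular immunoglobulin domains. Some bind integrins on leukocytes, as VCAM1 and ICAM1 do, and others bind a copy of themselves or a relative on the neighbouring cell. CD44 is not built of immunoglobulin domains: it binds hyaluronan through a link domain, and its short tail is tied to actin by ezrin, radixin and moesin. On tumour cells these molecules are known for contact with leukocytes, endothelium and matrix, and inflammatory signals such as TNF are textbook inducers of Vcam1 and Icam1.

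The targeted gene was read first. Mouse kiaa1522 is listed as C77080 (chromosome 4, 129219578 to 129261404, minus strand) and measured 127, 130 and 124 CPM in sgcontrol and 210, 203 and 216 in the libraries labelled sgkiaa1522 (CPM, counts relative to the library total, scaled by edgeR's TMM factors). Its log2 fold change was 0.73 (SE 0.0569), with a Benjamini-Hochberg adjusted p of 9.10e-05 in the quasi-likelihood test of edgeR, called the edgeR adjusted p from here on. The mRNA was thus higher, not lower, in the libraries that carry its sgRNA, and the counts do not show whether the protein was lost. Every direction that follows is between libraries by their labels. Libraries held between 12220001 and 18609376 counts, 10046 genes passed the filter of more than 500 counts over the 6 libraries, and the labels name no batch. Of the epithelial markers, Krt8, Krt18 and Krt19 were abundant, whereas Epcam and Cldn3 had 0 counts in every library.

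Of the 9 adhesion genes, 7 passed the filter and were tested, while Ncam1 and L1cam had too few counts. The RNA of 5 genes, Vcam1, Icam1, Alcam, Mcam and F11r, was lower in the libraries labelled sgkiaa1522 at an edgeR adjusted p of at most 0.05, where 26.3% of all tested genes were called lower. Pvr alone of the 7 was called higher, where 26.3% of all tested genes were called higher. Cd44 did not pass the test. When a 2-fold difference (log2 of 1) was also required, Vcam1 was lower and Pvr was higher, against 4.34% and 2.74% of all tested genes in those directions and 7.08% in either. The groups did not overlap in 5 genes that were lower and 1 that was higher, against 31.1% and 30.6% of tested genes (61.7% in either direction), and they overlapped in Cd44. The median log2 fold change was -0.44 over the 7 genes and -0.01 over all 10046 tested genes. These counts describe the 7 genes and were not tested as a list.

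**Figure D1:**
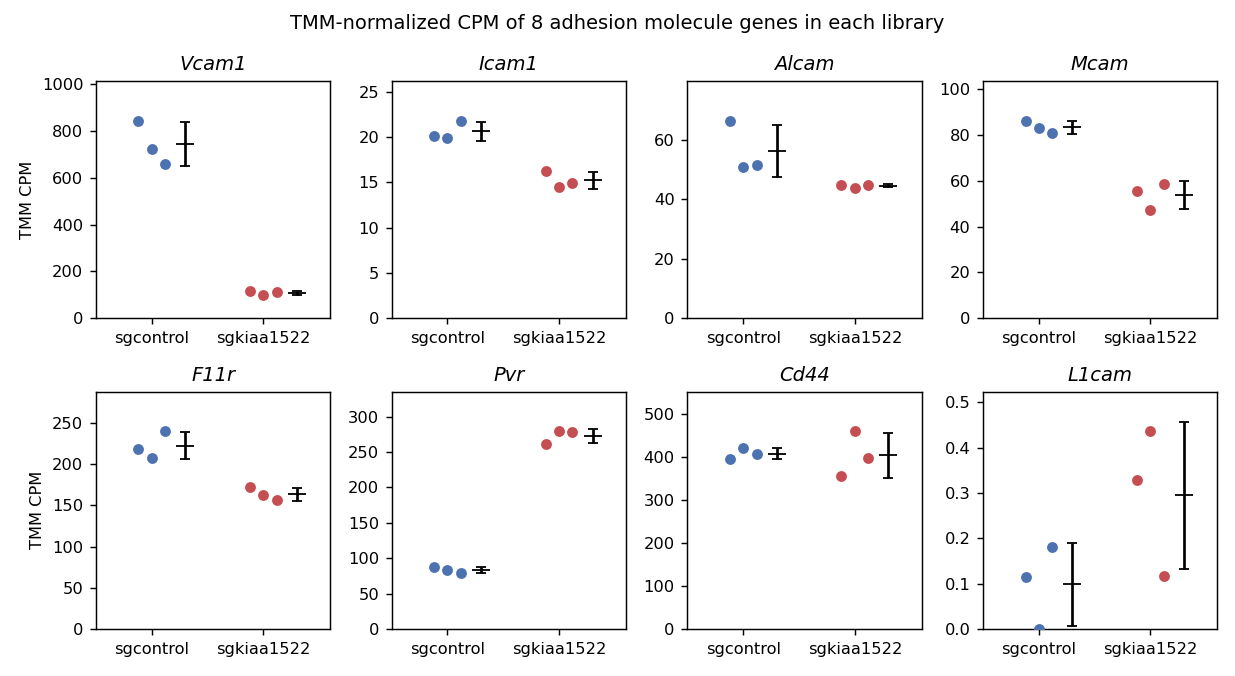
TMM-normalized CPM (vertical axes, each starting at 0) of 8 adhesion genes in the 3 sgcontrol and the 3 sgkiaa1522 libraries. Points are libraries, and the bars give the mean and SD (n = 3). Ncam1, with 0 counts in every library, is not drawn. Vcam1 fell from 744 to 109 CPM and Pvr rose from 83.5 to 273, whereas the Cd44 groups overlap.

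Promoter windows, from 250 bases before to 50 bases after a start, were taken from RefSeq on GRCm38.p6, and 6 of the 9 genes had at least 1 (Icam1, Alcam, Mcam, L1cam, F11r and Cd44, with 2 windows for L1cam). Vcam1, Ncam1 and Pvr had no entry. Both strands were searched for the NFκB consensus and for the AP-1 motif TGANTCA. The NFκB consensus was in none of the 7 windows of these genes and in 4.51% of 32851 mouse windows. TGANTCA was in the F11r window and in no other of the 7, and in 7.81% of all windows. A palindromic κB site, GGAANTTCC, and TATAAA were added after the Icam1 window had been read: the first is in 0.93% of all windows and the second in 13.6%, and among these genes both were in that of Icam1 alone. No match overlaps another motif. The windows of 3 genes that were lower and of Cd44 are shown so that the matches can be read in place, 5′ to 3′ on the strand of the gene. Capitals mark GGAAATTCC and then TATAAA in Icam1 (chr9:21015690-21015989, plus strand), and TGAGTCA in F11r (chr1:171437311-171437610, plus strand). Mcam (chr9:44134408-44134707, plus strand) and Cd44 (chr2:102901616-102901915, minus strand) hold none of the 4.
Icam1: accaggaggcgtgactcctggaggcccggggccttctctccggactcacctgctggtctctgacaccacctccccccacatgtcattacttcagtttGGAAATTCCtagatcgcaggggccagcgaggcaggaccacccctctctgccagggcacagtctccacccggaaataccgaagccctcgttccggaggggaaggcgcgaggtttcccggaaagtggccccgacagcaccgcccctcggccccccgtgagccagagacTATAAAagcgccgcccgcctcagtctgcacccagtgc
F11r: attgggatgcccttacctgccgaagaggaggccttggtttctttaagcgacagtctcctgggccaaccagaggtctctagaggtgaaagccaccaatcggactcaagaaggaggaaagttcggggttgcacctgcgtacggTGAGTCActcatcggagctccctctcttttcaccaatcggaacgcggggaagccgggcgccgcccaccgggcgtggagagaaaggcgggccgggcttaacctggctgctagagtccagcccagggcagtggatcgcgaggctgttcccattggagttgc
Mcam: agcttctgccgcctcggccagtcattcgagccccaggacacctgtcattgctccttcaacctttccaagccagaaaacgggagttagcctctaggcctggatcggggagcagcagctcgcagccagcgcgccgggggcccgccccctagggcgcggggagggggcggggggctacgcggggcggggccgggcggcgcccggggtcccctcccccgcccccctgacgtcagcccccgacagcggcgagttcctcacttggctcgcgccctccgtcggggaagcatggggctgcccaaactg
Cd44: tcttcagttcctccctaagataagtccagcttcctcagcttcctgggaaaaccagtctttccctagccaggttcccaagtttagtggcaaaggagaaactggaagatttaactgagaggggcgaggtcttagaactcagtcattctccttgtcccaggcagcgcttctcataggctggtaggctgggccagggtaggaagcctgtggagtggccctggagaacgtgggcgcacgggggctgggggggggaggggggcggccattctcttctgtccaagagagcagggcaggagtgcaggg

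In Icam1, GGAAATTCC begins 153 bases before the RefSeq start and 198 bases before the start that GENCODE gives for the gene, and TATAAA begins 13 bases after the RefSeq start and 32 bases before the GENCODE start. In F11r, TGAGTCA begins 109 bases before the RefSeq start and 83 bases before the GENCODE start. The windows differ in base composition. GC content was 72.7% in Mcam and 69.7% in Alcam, 64.7% in Icam1, 60.3% in F11r and 58.0% in Cd44, and CG dinucleotides numbered 29 in Mcam, 25 in Alcam, 19 in Icam1, 19 in F11r and 6 in Cd44. A match is a description of letters in a window, and an absent match says only that these letters are not in it.

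VCAM1 and ICAM1 are best known as ligands of leukocyte integrins: VCAM1 is the partner of α4β1 and α4β7, and ICAM1 of the β2 integrins. Vcam1 (ENSMUSG00000027962, chromosome 3, 116109949 to 116129688, minus strand) measured 846, 725 and 661 CPM in sgcontrol and 115, 98.9 and 113 CPM in sgkiaa1522, from 11015 to 14734 counts and from 1393 to 1922 counts per library. Every sgkiaa1522 library was far below every sgcontrol library. The means of Vcam1 were 744 ± 93.8 and 109 ± 8.74 CPM (SD, n = 3), and on the log2 scale the change was -2.77 (SE 0.110, 95% interval -3.03 to -2.52) which is 6.83-fold lower, with an edgeR adjusted p of 8.43e-06. It was the 15th largest fall among the 10046 tested genes. Exons of the antisense gene Gm43109 cover 0.688% of the exon bases of Vcam1, and that gene had 0 counts.

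Icam1 (ENSMUSG00000037405, chromosome 9, 21015985 to 21028817, plus strand) moved less than Vcam1. It measured 20.1, 20.0 and 21.8 CPM in sgcontrol and 16.3, 14.5 and 15.0 CPM in sgkiaa1522. All 3 sgkiaa1522 libraries were lower than all 3 sgcontrol libraries. Its log2 fold change was -0.44 (SE 0.0962, 95% interval -0.66 to -0.21), with an edgeR adjusted p of 0.00686. The antisense gene Gm47079, which is not in the files, covers 11.7% of the exon bases of Icam1, and the sources used here do not say whether counting used strand. Gm47079 also covers 100% of the exon bases of Icam4 and 3.94% of those of Icam5. Another antisense gene, Gm26592, covers 26.8% of the exon bases of Icam5 and had 0 counts. The neighbouring relatives Icam4 and Icam5 stayed under the filter. Icam4 had 108, 147 and 145 counts against 20, 42 and 26, and Icam5 had 98, 102 and 93 against 54, 66 and 53.

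The integrin subunits that bind these members were a list of 11 genes, of which 5 were tested. None was called lower, 2 were called higher, and the median log2 fold change was 0.25. For this list and those that follow, the background over all tested genes is 26.3% called lower, 26.3% called higher and a median of -0.01, and no list was tested against it. Itgb7, the β7 chain of α4β7, had 43, 43 and 42 counts in sgcontrol and 165, 288 and 295 in sgkiaa1522. Its log2 fold change was 2.68 (SE 0.144), with an edgeR adjusted p of 2.43e-05, 6.39-fold higher from a low level of 2.44 CPM. Itga4, which encodes the α4 chain that pairs with β7 and β1, had at most 2 counts in any library. The leukocyte chains Itgal, Itgam and Itgb2 had at most 5 counts. Itga5, part of the fibronectin receptor, rose from 36.8 to 50.3 CPM (log2 fold change 0.45, SE 0.0831, edgeR adjusted p = 0.00316). Itgb1, the common β1 chain, measured 889 and 854 CPM and did not pass (edgeR adjusted p = 0.505).

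PVR, also called CD155, is a nectin-like molecule that binds nectin 3 on neighbouring cells and is read by DNAM-1 (CD226), TIGIT and CD96 on T and NK cells. Pvr (ENSMUSG00000040511, chromosome 7, 19903578 to 19921160, minus strand) measured 88.1, 82.7 and 79.6 CPM in sgcontrol and 261, 279 and 278 CPM in sgkiaa1522, from at least 1327 counts in a library. The groups were far apart beside their spread, with coefficients of variation of 5.15% and 3.73%. The log2 fold change was 1.71 (SE 0.0660, 95% interval 1.56 to 1.86), 3.27-fold higher, with an edgeR adjusted p of 8.43e-06. It was the 92nd largest rise among the tested genes. No exon of another gene overlaps Pvr in the annotation.

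Among the partners of PVR, Tigit, which encodes an inhibitory receptor of T and NK cells, was higher in the same libraries. It measured 10.2, 11.4 and 11.7 CPM in sgcontrol and 43.6, 48.8 and 60.1 in sgkiaa1522, a log2 fold change of 2.19 (SE 0.138, edgeR adjusted p = 4.31e-05). Cd226 and Cd96 had 0 counts in all 6 libraries. So did Cd3e, the T-cell marker, and Ptprc, which marks leukocytes, had 14, 1 and 6 counts against 1, 2 and 2. No exon of another gene overlaps Tigit. Nectin2 (Pvrl2 in the files), a relative of Pvr that TIGIT also binds, fell from 101 to 61.4 CPM (log2 fold change -0.72, SE 0.0783, edgeR adjusted p = 0.000313). Nectin3, the binding partner of PVR, had a log2 fold change of 0.07 and an edgeR adjusted p of 0.654.

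F11R, known as JAM-A, sits at tight junctions, binds itself across the cell contact and is a ligand of the integrin LFA-1. F11r (ENSMUSG00000038235, chromosome 1, 171437535 to 171464603, plus strand) measured 219, 208 and 240 CPM in sgcontrol and 172, 163 and 156 CPM in sgkiaa1522. The lowest sgcontrol library stayed above the highest sgkiaa1522 library. The log2 fold change was -0.44 (SE 0.0741, 95% interval -0.62 to -0.27), with an edgeR adjusted p of 0.00207. The log2 fold change of F11r was close in size to that of Icam1. No exon of another gene overlaps F11r in the annotation.

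The list of other receptors and partners of the 9 molecules, which holds Tigit and the junction proteins beside F11R, had 16 genes. Of these, 7 were tested, 2 were called lower and 3 higher, and the median log2 fold change was 0.20. Cgn, encoding cingulin of the tight junction plaque, fell from 20.0 to 5.60 CPM, a log2 fold change of -1.83 (SE 0.122, edgeR adjusted p = 5.25e-05). Tjp1, encoding the plaque scaffold ZO-1, fell from 228 to 182 CPM (log2 fold change -0.32, edgeR adjusted p = 0.0247). The call of Tjp1 was lost without replicate 2 of sgcontrol (edgeR adjusted p = 0.0562) or replicate 1 or 2 of sgkiaa1522 (0.0808 and 0.0643. Jam2, which encodes the related junction molecule JAM-B, was lower as well, from 34.2 to 19.5 CPM (log2 fold change -0.81, SE 0.115, edgeR adjusted p = 0.000972). Afdn (Mllt4 in the files), an actin linker at nectins and JAMs, was called higher with a log2 fold change of 0.92 (edgeR adjusted p = 0.0276), and its groups overlapped. That call was lost without replicate 2 or 3 of either group (edgeR adjusted p of 0.0852 and 0.0764 for sgcontrol, 0.0768 and 0.0808 for sgkiaa1522), while without replicate 1 the log2 fold change of Afdn passed 1 (1.32 for sgcontrol and 1.08 for sgkiaa1522).

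Among the molecules that act mainly between like cells, MCAM (CD146) is known from melanoma and vascular endothelium and binds laminin, and ALCAM (CD166) binds itself and CD6 on T cells. Mcam (ENSMUSG00000032135, chromosome 9, 44134469 to 44142727, plus strand) measured 86.3, 83.2 and 80.7 CPM in sgcontrol and 55.7, 47.1 and 58.6 CPM in sgkiaa1522. The groups were clearly separate, and the spread was wider in sgkiaa1522. Its log2 fold change was -0.63 (SE 0.0940, 95% interval -0.85 to -0.41), 1.55-fold lower, with an edgeR adjusted p of 0.00120. Exons of Gm10687 cover 0.507% of the Mcam exon bases, and that gene had at most 26 counts in a library.

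Alcam (ENSMUSG00000022636, chromosome 16, 52248996 to 52454074, minus strand) had the smallest fall of the 5 genes called lower. It measured 66.4, 50.8 and 51.5 CPM in sgcontrol and 44.7, 43.9 and 44.9 CPM in sgkiaa1522. The sgcontrol library of replicate 1 stood above the other 2, which lay only a little above the sgkiaa1522 libraries. The log2 fold change was -0.34 (SE 0.116, 95% interval -0.61 to -0.07), with an edgeR adjusted p of 0.0406. The call was lost when any 1 of the sgkiaa1522 libraries was left out (edgeR adjusted p of 0.0869, 0.107 and 0.0917 without replicates 1, 2 and 3), and without replicate 1 of sgcontrol the log2 fold change was -0.21, with an edgeR adjusted p of 0.0299. Cd6, its T-cell partner, had 0 counts in all 6 libraries.

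NCAM1 and L1CAM are the neural members of the group, known for homophilic adhesion of neurons and for their appearance on neuroendocrine and invasive tumours. Ncam1 (ENSMUSG00000039542, chromosome 9, 49502136 to 49798925, minus strand) had 0 counts in every library, which allows a level of up to 0.162 to 0.247 CPM. That is the worth of 3 counts in the libraries with the largest and the smallest TMM-scaled total, and an allowance for counting error only. L1cam (ENSMUSG00000031391, chromosome X, 73853778 to 73896105, minus strand) had 2, 0 and 3 counts in sgcontrol and 4, 8 and 2 counts in sgkiaa1522. The groups overlapped and lay near that floor. The same-strand neighbour Arhgap4 shares 1.36% of the exon bases of L1cam. In a fit of every gene with at least 1 count, the log2 fold change of L1cam was 1.56 with a 95% interval from -0.49 to 3.61 and an edgeR adjusted p of 0.247, so no difference was detectable at this depth.

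Cd44, whose product binds hyaluronan, was the only tested gene of the group that did not pass. It (ENSMUSG00000005087, chromosome 2, 102811141 to 102901665, minus strand) measured 396, 421 and 407 CPM in sgcontrol and 355, 460 and 397 CPM in sgkiaa1522. The sgkiaa1522 libraries spanned the whole sgcontrol range, and their coefficient of variation was 13.1% against 3.05%. The log2 fold change was -0.01 (SE 0.0950) with an edgeR adjusted p of 0.916, and the 95% interval from -0.24 to 0.21 bounds the size of a difference. The counts are per gene, so the splice forms of CD44 could not be told apart.

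**Figure D2:**
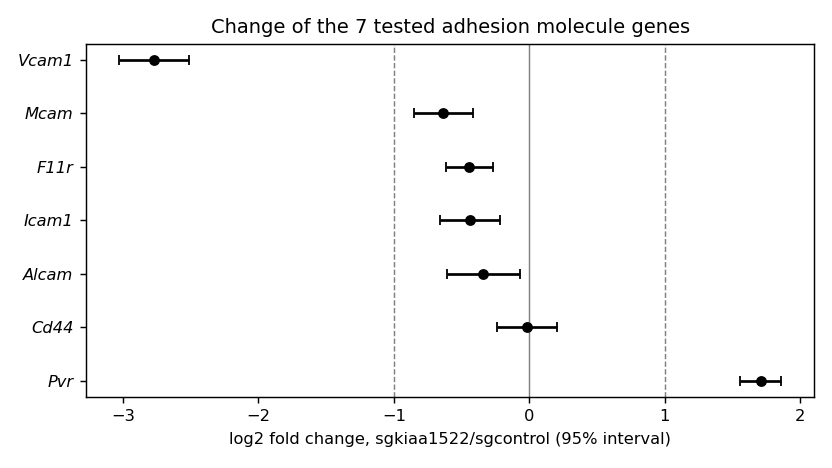
Log2 fold change of the 7 tested adhesion genes, sgkiaa1522 over sgcontrol (horizontal axis), with 95% intervals from edgeR. The solid line marks no change and the dashed lines a log2 fold change of 1 in size. Vcam1 (-2.77) and Pvr (1.71) lie outside the dashed lines, 4 genes lie between -0.63 and -0.34, and the Cd44 interval spans 0.

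The partners of CD44 are hyaluronan, the enzymes that make and break it, and other matrix ligands. Of 12 such genes 5 were tested, none was called lower and 1 was called higher, with a median log2 fold change of 0.26. Spp1, encoding osteopontin, a secreted ligand of CD44 and of integrins, rose from 1975 to 3711 CPM (log2 fold change 0.91, SE 0.0777, edgeR adjusted p = 0.000121). A gene on the same strand, Gm42793, shares 18.8% of the exon bases of Spp1. It had at most 84 counts in a library, where Spp1 had at least 31536. Hmmr, a hyaluronan receptor gene, did not pass (log2 fold change 0.26, edgeR adjusted p = 0.171). Neither did Hyal2, encoding a hyaluronidase (log2 fold change -0.49, edgeR adjusted p = 0.281), nor Cemip2, Tmem2 in the files (log2 fold change 0.30, edgeR adjusted p = 0.119). Without replicate 1 of sgcontrol, Hyal2 (edgeR adjusted p = 0.0297) and Cemip2 (0.00562) passed, and without replicate 1 of sgkiaa1522 Hmmr passed (0.0292).

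Of the linkers between membrane proteins and the cytoskeleton, 9 of 11 listed symbols were tested, 3 were called lower and 1 higher, and the median log2 fold change was -0.11. Ezr, encoding ezrin, was abundant, with 2122 and 2014 CPM, and did not pass (edgeR adjusted p = 0.292). Msn, encoding moesin, fell from 825 to 715 CPM (log2 fold change -0.21, edgeR adjusted p = 0.0369). Nf2, encoding merlin, the relative of ezrin that is a tumour suppressor, rose from 85.1 to 102 CPM (log2 fold change 0.26, edgeR adjusted p = 0.0110). The call of Nf2 was lost without replicate 3 of sgkiaa1522 (edgeR adjusted p = 0.0518), and that of Msn without replicate 2 of sgcontrol (0.0508) or any 1 sgkiaa1522 library (0.107, 0.0660 and 0.104). Slc9a3r1, the scaffold that ezrin binds, fell by 0.46 on the log2 scale (edgeR adjusted p = 0.00991), and Ank1, an ankyrin, fell by 0.73 from 10.1 CPM (edgeR adjusted p = 0.00216). The antisense gene Gm15816 shares 6.37% of the exon bases of Ank1. It had 119, 149 and 157 counts in sgcontrol and 62, 85 and 67 in sgkiaa1522, and whether counting used strand is not known. The changes of the linkers called were small beside those of Vcam1 and Pvr.

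The enzymes that cut adhesion molecules from the surface, splice CD44 or modify glycans were 12 genes, of which 8 were tested, 2 called lower and none higher, with a median log2 fold change of -0.12. Adam10, encoding a sheddase that cuts CD44, ALCAM, L1CAM and others, measured 500, 176 and 403 CPM in sgcontrol and 135, 145 and 139 in sgkiaa1522. The sgcontrol library of replicate 2 stood close to the sgkiaa1522 libraries and far from the other 2. The log2 fold change of Adam10 was -1.36 (SE 0.328, edgeR adjusted p = 0.0104), and over the fits that left out 1 library it lay between -1.69 and -1.05. Adam17, the other main sheddase of this list, had a log2 fold change of -0.14 and did not pass (edgeR adjusted p = 0.231). Fut8, a fucosyltransferase, fell by 0.46 on the log2 scale (edgeR adjusted p = 0.00945).

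The other immunoglobulin-type adhesion molecules were a list of 30 genes, of which 13 were tested. Of these, 7 were called lower, 1 was called higher and 5 did not pass, where 26.3% of all tested genes were called in each direction. The median log2 fold change was -0.44, beside -0.01 for all tested genes. Bcam, the Lutheran glycoprotein that binds laminin and is a close relative of Mcam, fell from 467 to 198 CPM (log2 fold change -1.24, SE 0.0729, edgeR adjusted p = 3.32e-05). Bsg, encoding basigin (CD147), fell from 348 to 165 CPM (log2 fold change -1.08, SE 0.164, edgeR adjusted p = 0.00133). Bcam and Bsg were the genes of the list that also passed the 2-fold threshold, and Bsg no longer reached it without replicate 3 of sgcontrol (log2 fold change -0.97) or replicate 3 of sgkiaa1522 (-0.97). The rest of those called lower were Jam2 and Nectin2, given above, and Cadm4, Mpzl1 and Cd47, with log2 fold changes of -0.67, -0.49 and -0.44. Cd276, encoding the checkpoint molecule B7-H3, was the gene called higher (log2 fold change 0.33, edgeR adjusted p = 0.00663).

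**Figure D3:**
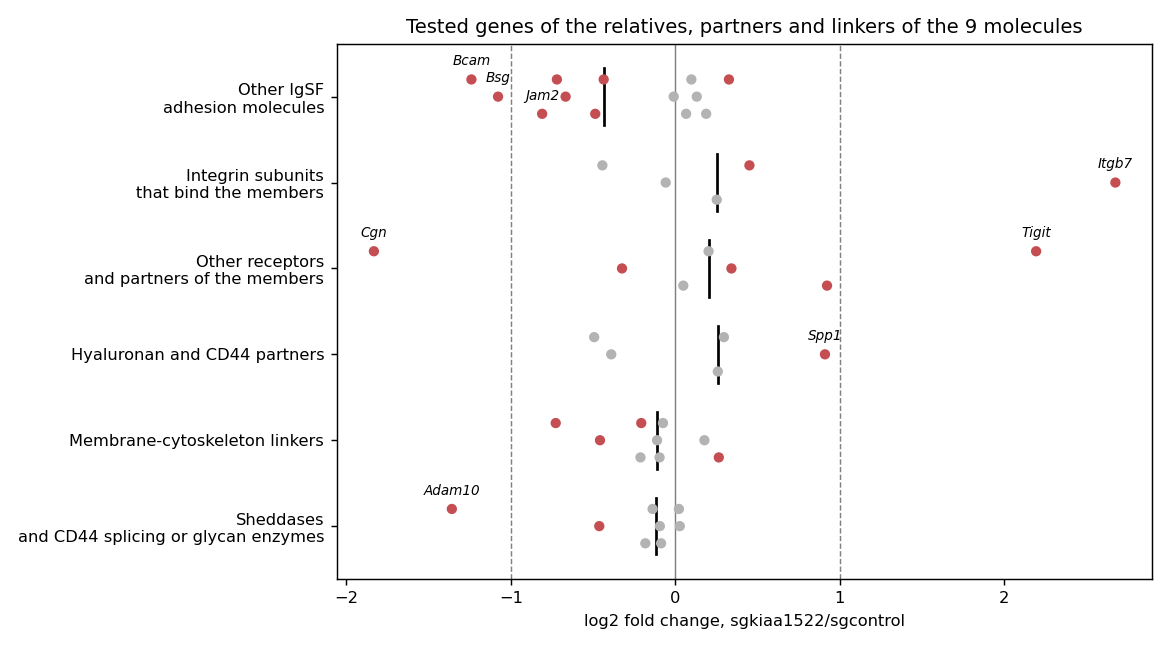
Log2 fold change (horizontal axis, sgkiaa1522 over sgcontrol) of the tested genes of 6 lists of relatives, partners, linkers and enzymes. Red points had an edgeR adjusted p of at most 0.05 and grey points did not, vertical bars give list medians, and dashed lines mark a log2 fold change of 1 in size. Itgb7 (2.68) and Tigit (2.19) lie farthest to the right and Cgn (-1.83) farthest to the left.

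Levels of different genes were compared only per length, as TPM, in which counts are divided by the summed exon length of each gene and scaled to the same total in every library. In sgcontrol the order of mean TPM was Vcam1 (216 ± 31.9), F11r (214 ± 15.5), Cd44 (154 ± 2.50), Mcam (63.9 ± 3.50), Pvr (35.0 ± 2.56), Alcam (20.3 ± 3.67), Icam1 (12.2 ± 0.558), L1cam (0.0344) and Ncam1 (0; SD, n = 3). Vcam1 and F11r had overlapping ranges, and the other neighbours above L1cam did not overlap. In sgkiaa1522 the order was F11r (168 ± 6.96), Cd44 (163 ± 20.3), Pvr (122 ± 5.18), Mcam (44.0 ± 5.45), Vcam1 (33.6 ± 3.05), Alcam (17.1 ± 0.455), Icam1 (9.58 ± 0.606), L1cam (0.109) and Ncam1 (0). Here F11r and Cd44 overlapped. By this length Vcam1 moved from the first place to the fifth and Pvr from the fifth to the third, while Alcam, Icam1, L1cam and Ncam1 kept the last 4 places in this order. With the mean transcript length in place of the summed exons, Vcam1 and F11r no longer overlapped in sgcontrol but Mcam and Pvr did. In sgkiaa1522, Vcam1 then took the fourth place (55.4 ± 4.73 TPM), overlapping Mcam (52.0 ± 6.14), and Pvr was the most abundant (238 ± 9.98 TPM), ahead of Cd44 (199 ± 25.6) and F11r (187 ± 7.80).

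**Figure D4:**
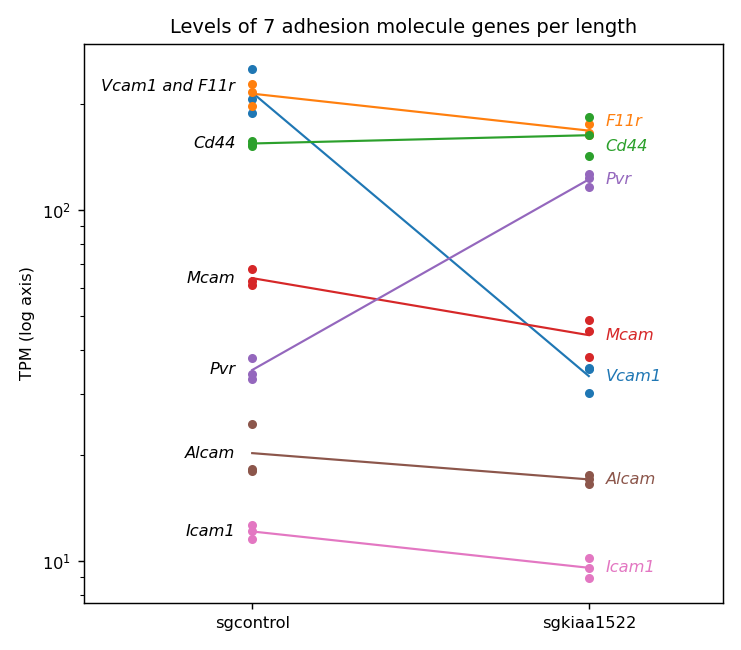
TPM from summed exon length (vertical axis, log scale) of the 7 tested adhesion genes in sgcontrol and sgkiaa1522. Points are libraries and lines join the group means. The line of Vcam1 falls from 216 to 33.6 TPM and crosses that of Pvr, which rises from 35.0 to 122.

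The summed TPM of the 9 genes was 763, 688 and 695 in sgcontrol and 543, 565 and 564 in sgkiaa1522, so every sgkiaa1522 library was lower. Vcam1 made up 32.9%, 30.1% and 27.2% of that sum in sgcontrol and 6.50%, 5.32% and 6.30% in sgkiaa1522. Pvr made up 4.96%, 4.96% and 4.75% in sgcontrol and 21.4%, 21.8% and 22.4% in sgkiaa1522. The share of Vcam1 was thus lower and that of Pvr higher in every sgkiaa1522 library than in any sgcontrol library. The share of Cd44 was higher there too (20.2% to 22.8% and 26.3% to 32.4%), but of a smaller sum. Cd44 itself had mean TPM of 154 and 163 and did not pass the test. The share of F11r overlapped between groups (28.3% to 32.9% and 28.9% to 32.4%). Among all 34267 genes with a length, mean TPM placed Vcam1 at the 98.5th percentile in sgcontrol and at the 88.0th in sgkiaa1522, and Pvr at the 89.1st and the 97.0th.

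Vcam1, Mcam and Alcam are also made by cells other than carcinoma cells, so markers of other cell types were read beside them. The summed level of 10 fibroblast markers was 467 to 486 CPM in sgcontrol and 167 to 198 CPM in sgkiaa1522. It was lower there, as Vcam1 was, and so were the sums of mast cell and lung epithelial markers given below. Thy1 and Fap were at 0 in every library and Dcn and Lum at no more than 2 counts. Col1a2 carried the fall of the fibroblast sum, from 424 to 154 CPM (log2 fold change -1.46, edgeR adjusted p = 1.52e-05). Pdgfrb fell as well (log2 fold change -0.72, edgeR adjusted p = 0.00864), and Col1a1 had 105, 126 and 137 counts against 20, 29 and 34. The sum of 10 endothelial markers was 3.72 to 5.80 against 9.90 to 12.2 CPM, with Emcn at 0 and Cdh5 at no more than 5 counts. That rise lay mainly in Vwf, from a mean of 3.23 to 9.78 CPM (log2 fold change 1.59, edgeR adjusted p = 0.000516), whereas Cdh5 had 4, 0 and 5 counts against 0 in each sgkiaa1522 library. The sum of 10 leukocyte markers was 3.88 to 7.58 against 12.6 to 14.6 CPM, with Cd3e and Adgre1 at 0. Cd68 carried that rise, from a mean of 1.195 to 11.3 CPM (log2 fold change 3.23, edgeR adjusted p = 2.02e-05), whereas Lyz2 had 63, 18 and 37 counts against 11, 17 and 16 and Coro1a 19, 13 and 14 against 5, 5 and 5. The sum of 10 mast cell markers was 546 to 636 against 19 to 46.1 CPM, of which Mcpt1 made up a mean of 573 and 15.4 CPM, with Cpa3, Fcer1a and Ms4a2 at 0. Mcpt4 had 105, 124 and 122 counts against 0, 0 and 1. Tpsab1, the other tested gene of that list, was called higher (log2 fold change 0.67, edgeR adjusted p = 0.0435), a call lost in 5 of the 6 fits that left out 1 library (edgeR adjusted p from 0.0763 to 0.119) and kept without replicate 3 of sgkiaa1522 (0.00799). The sum of 10 lung epithelial markers was 3890 to 4620 against 3280 to 3520 CPM, with 5 of the 6 tested called lower, Cdh1 among them (log2 fold change -1.45, edgeR adjusted p = 5.12e-05). The part of these markers in the results for the adhesion genes was not tested. In bulk RNA, fewer cells that make a transcript and less of it in each cell cannot be told apart.

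The genes whose profiles over the 6 libraries were nearest to those of Vcam1 and Pvr were found by Euclidean distance between centred log2(CPM + 0.5) values. For Vcam1 these were Scel at a distance of 0.336, Cma1 at 0.503 and Fos at 0.537, with log2 fold changes of -2.55, -2.80 and -2.46. For Pvr these were Mtmr7 at 0.152, Rab12 at 0.206 and Aoc2 at 0.231, with log2 fold changes of 1.96, 1.80 and 1.78. The distance was taken over 6 libraries that fall into 2 groups, so it mostly reads the size of the difference between the groups.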

How the data were processed

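The authors deposited counts: per their methods, clean reads were mapped to GRCm38 with HISAT2 2.0.4 and fragments of genes were counted with StringTie 1.3.0 (versions as in the submitters' processing notes). The deposited values are whole-number counts of 34745 genes in each of 6 libraries, without normalization. Whether counting used strand is not given in the sources used here. From these counts, the 10046 genes whose sum over the libraries exceeded 500, which held 99.5% of all counts, were fitted with edgeR's quasi-likelihood test in R 4.3.3 (edgeR 4.0.16, limma 3.58.1), with TMM factors from 0.989 to 1.01 and Benjamini-Hochberg adjustment over all tested genes. Calls required an adjusted p of at most 0.05, and, where stated, a 2-fold difference as well (log2 of 1), as in the study's methods.

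Positions, exon lengths and overlaps came from GENCODE M21, to which 34267 identifiers matched, and promoter windows from RefSeq. Alternatives were DESeq2 1.42.0, RLE factors, library size alone, 2 other filters, a replicate block and each library left out. Of 199 genes changed in simulated counts of 10022 genes, edgeR recovered 199 and called 14 others. Recovery at differences as small as those of Icam1, Alcam, Mcam and F11r was not tested separately. Within groups, no pair of libraries agreed within sampling noise (chi-square per degree of freedom at least 10.1). The 9 genes and the lists were chosen with earlier results of these data known. Genes named from a list are up to 4 with the largest change among those called without overlap between groups. Nectin3, Cd276, Cadm4, Mpzl1, Cd47, Afdn, Itgb1, Ezr, Hmmr, Hyal2, Cemip2, Adam17 and the genes given by counts alone are outside that rule and were chosen after their values were seen. The cell type markers were read as whole lists. A gene of the list of receptors and partners is counted but not reported here by name.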

Additional observations from a re-analysis of the deposited data

How the results depend on the processing

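Over 12 alternatives, 82 of 84 values of the 7 tested adhesion genes kept their direction and 80 kept their side of the threshold. The exceptions were Alcam, in its call, and Cd44, in its sign. With the replicate number as a block, Alcam had a log2 fold change of -0.33 and an edgeR adjusted p of 0.0716, and 4 rather than 5 of the genes were called lower. Leaving out 1 library moved Alcam between -0.41 and -0.21 (edgeR adjusted p 0.0299 to 0.107), and the call was lost without any 1 sgkiaa1522 library. Cd44, which passed in no setting, moved between -0.12 and 0.071 and changed sign without replicate 2 of sgcontrol (0.01) and without replicate 1 of sgkiaa1522 (0.071). The cause was not tested.

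When 1 library was left out, the log2 fold changes lay between -2.85 and -2.68 for Vcam1, -0.49 and -0.40 for Icam1, -0.70 and -0.55 for Mcam, -0.49 and -0.39 for F11r and 1.67 and 1.74 for Pvr, and 4 to 5 genes were called lower. The numbers of all genes called with the fold threshold rose from 436 lower and 275 higher to 941 and 767 with every gene of at least 1 count, and to 812 and 607 with filterByExpr, which test more genes of low counts. In the order by TPM in sgkiaa1522, 5 of the 9 genes kept their place with the mean transcript length.

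Same-numbered libraries did not deviate together (correlations of -0.23, -0.05 and -0.17), and pairs of unlike number lay between -0.08 and 0.21. These values gave no sign that the numbers pair the samples. Deviations from the mean of only 3 libraries a group cannot exclude a pairing. Among the list genes and markers named in the report with a fold change, the calls that changed were those of Tjp1, Nf2, Msn, Afdn, Hyal2, Cemip2, Hmmr and Tpsab1 when 1 library was left out, as given there, those of Tjp1 and Msn under the block (edgeR adjusted p of 0.0735 and 0.0994), and that of Msn with every gene of at least 1 count (0.0502). The 2-fold threshold was lost by Bsg and gained by Afdn when certain libraries were left out, as given in the report. Nectin3 and Itgb1, which passed in no fit, changed sign when 1 library was left out: Nectin3 lay between -0.021 and 0.14, negative without replicate 3 of either group, and Itgb1 between -0.098 and 0.0068, positive without replicate 1 of sgcontrol. With 3 libraries a group, changes as small as that of Alcam lie at the limit of what these data resolve.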
